A study of Homo sapiens with 6 samples.

Results

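Amino acid transporters are the membrane proteins that carry amino acids into and out of the cell and across the membranes of its organelles. Their genes were examined in OVCAR3 cells, an established line of human ovarian cancer, after knockdown of NUF2, a component of the kinetochore complex that binds spindle microtubules. The 43 genes were chosen by symbol among the 19973 genes of the count table, as all listed members of the SLC1, SLC3, SLC7, SLC36 and SLC38 families, SLC43A1 and SLC43A2, and 4 members of the SLC6 family (SLC6A6, SLC6A9, SLC6A14 and SLC6A15). Total RNA was sequenced after stranded mRNA library preparation from cells transfected with shNC, a control hairpin, in 3 libraries, and from cells that received the hairpin shNUF2, in another 3 libraries. All libraries were labelled with the WT genotype, and both populations had been selected with puromycin as stable lines, which the control cells share. No label or method states that the libraries of a group came from separate cultures, so that p-values measure the spread between these libraries, which may be technical. The data describe 1 cell line and 1 hairpin against NUF2, and how many stable populations stand behind each group is not given in the sources used here. The shNC libraries are called control libraries and the shNUF2 libraries knockdown libraries.

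Many of these transporters work as exchangers, which import an amino acid only by exporting another one. SLC3A2 (4F2hc, CD98) is a heavy chain without transport activity of its own that brings several SLC7 light chains to the plasma membrane, among them SLC7A5 (LAT1) for large neutral amino acids such as leucine and SLC7A11 (xCT) for cystine in exchange for glutamate. SLC1A5 (ASCT2) exchanges glutamine and other neutral amino acids, while SLC38A1 and SLC38A2 accumulate glutamine and small neutral amino acids together with sodium. Imported leucine, glutamine and cystine feed protein synthesis, mTORC1 signalling and glutathione synthesis, and several of these genes are known targets of ATF4, the transcription factor of the amino acid response.

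The libraries held 13057534 to 16995452 reads on genes. NUF2 itself had 903, 1096 and 1092 reads in the control libraries and 281, 290 and 384 in the knockdown libraries, and fell by 1.51 on the log2 scale (SE 0.08, adjusted p = 2.17e-15). Levels are given as normalized FPKM, that is counts scaled by TMM (trimmed mean of M values, an estimate of the effective library size) and divided by gene length in kilobases. Of 8 markers of ovarian carcinoma and epithelium, 7 had enough reads for a test. MSLN and KRT7 were abundant, at 151 and 167 normalized FPKM with shNC, whereas WT1 had at most 7 reads in any library and EPCAM 44 to 91 reads. The levels of PAX8, EPCAM and MUC16 with shNC were low, at 1.37, 1.4 and 1.11 normalized FPKM. KRT8 and KRT18 lay between, at 48.9 and 34.8. All 7 tested markers passed the adjusted p, in both directions: KRT8 (log2 fold change 1.04), EPCAM (0.69), PAX8 (0.64) and KRT18 (0.55) rose, and MSLN (-0.75), MUC16 (-0.75) and KRT7 (-0.22) fell. Their summed level, WT1 included, was 396 to 420 normalized FPKM in the control libraries and 382 to 403 in the knockdown libraries. Among 7 markers of other cell types, PTPRC, CD3E, VWF and LUM had at most 11 reads in any library, while PECAM1 had 24 to 49 and PDGFRB 9 to 27. Over these 7 genes the summed level was 3.89 to 4.42 normalized FPKM in the control libraries and 2.05 to 2.99 in the knockdown libraries, most of it from FOXL2, a granulosa cell factor. FOXL2 had 155, 166 and 185 reads in the control libraries and 79, 79 and 63 in the knockdown libraries, and was the only marker among the 3 tested to pass the adjusted p. The part of these marker differences in the results on transporters was not tested.

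The summed level of the transporters was lower in every shNUF2 library than in every shNC library. The sum over all 43 genes was 1650 ± 30 normalized FPKM with shNC and 777 ± 13.5 with shNUF2 (SD, n = 3 each), a ratio of 0.471. Most of this difference came from SLC7A5 and SLC3A2, which together made up 60.0 ± 0.306% of the sum with shNC and 38.8 ± 1.15% with shNUF2. The share of all reads that fell on these genes was 0.945 ± 0.0206% with shNC and 0.468 ± 0.00907% with shNUF2. In bulk RNA, fewer cells that express a gene and less RNA per cell cannot be told apart.

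Of the 43 genes, 29 had enough reads for the edgeR quasi-likelihood test, which was fitted to all 12874 genes that passed the filter on low counts. A gene was called when its log2 fold change (shNUF2 against shNC) lay beyond 1 or -1 with an unadjusted p under 0.05. By this rule 8 transporters were lower (27.6% of 29), beside 4.16% of all genes tested, and 2 were higher (6.9%), beside 9.41% of all genes tested. With a Benjamini-Hochberg adjusted p under 0.05 and no fold limit, 17 transporters fell (58.6%, against a background of 33.8%) and 6 rose (20.7%, against 33.9%). The median log2 fold change was -0.512 over the 29 transporters and -0.0126 over all genes tested. The 8 genes called lower were SLC6A9, SLC7A11, SLC3A2, SLC1A4, SLC7A5, SLC43A1, SLC1A5 and SLC38A3, and the 2 called higher were SLC1A3 and SLC7A8. Control and knockdown libraries were fully separated in 22 of the 29 transporters (75.9%, against a background of 70.6%). They were lower with shNUF2 in 18 (62.1%, against 35.4%) and higher in 4 (13.8%, against 35.2%).

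**Figure D1:**
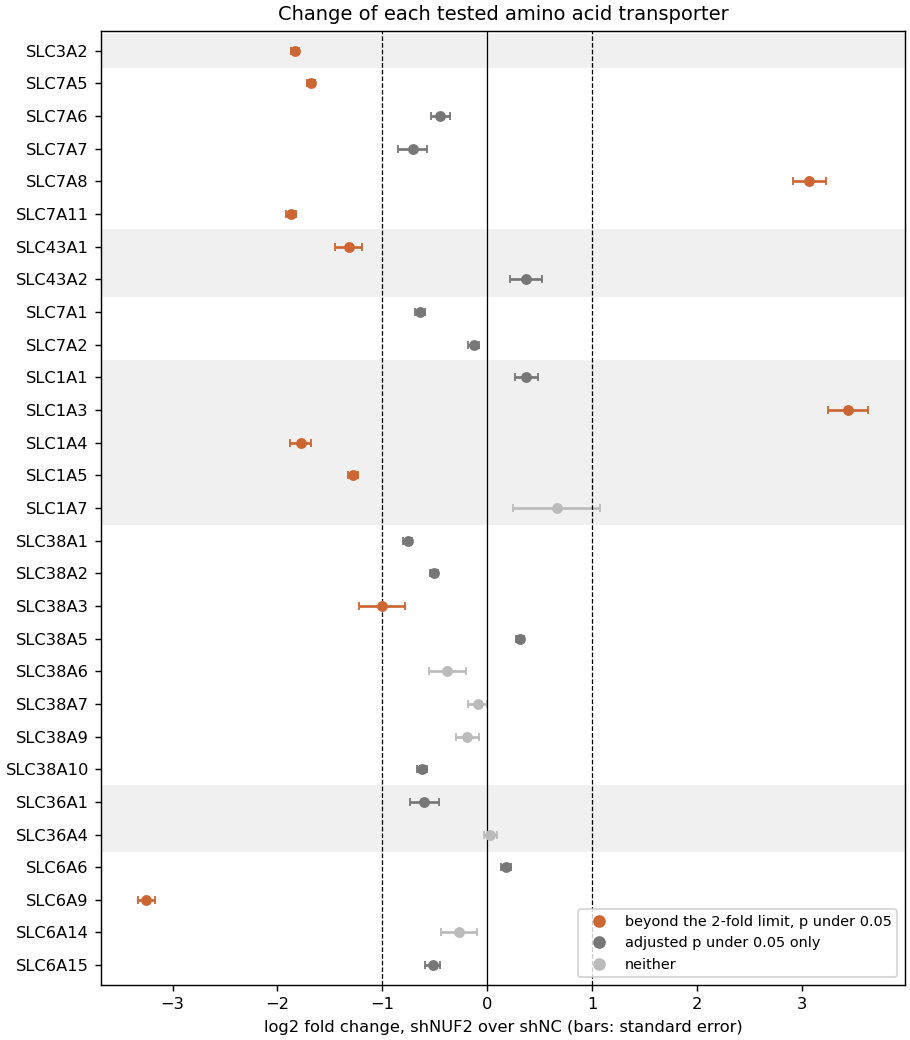
Log2 fold change (shNUF2 against shNC) with its standard error for the 29 tested transporters, grouped by transport class, with dashed lines at 1 and -1. Orange points passed the fold limit with an unadjusted p under 0.05, dark grey points passed the adjusted p alone and light grey points passed neither. The values reach from -3.25 for SLC6A9 to 3.44 for SLC1A3, and 8 orange points lie on the lower side.

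The heavy chain SLC3A2 and its most abundant light chain SLC7A5 were the 2 transporters with the highest level in control cells, and their mean levels were 3.55- and 3.21-fold lower in knockdown cells. SLC3A2 (chromosome 11, 62856102 to 62888875, GRCh38.p13) had 18817, 22103 and 22115 reads in the control libraries and 4864, 4893 and 5828 in the knockdown libraries. The lowest control library had more than 3 times the reads of any knockdown library. Its level was 258 ± 9.54 normalized FPKM with shNC and 72.7 ± 2.6 with shNUF2 (SD, n = 3 each), with a log2 fold change of -1.83 (SE 0.04, adjusted p = 1.82e-22). SLC7A5 (chromosome 16, 87830023 to 87869507) had 48381, 56808 and 60532 reads in the control libraries and 13905, 14515 and 16827 in the knockdown libraries. The groups were again far apart, with means of 733 ± 16.6 and 229 ± 10.4 normalized FPKM and a log2 fold change of -1.68 (SE 0.04, adjusted p = 4.25e-22). SLC7A5 alone made up 44.4 ± 0.561% of the summed level of all 43 genes with shNC and 29.4 ± 0.991% with shNUF2. SLC3A1, the heavy chain of the renal cystine transporter, had at most 1 read in any library.

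The cystine transporter SLC7A11 fell to nearly the same degree as its heavy chain. It lies on chromosome 4 from 138164097 to 138242349, and had 4445, 5729 and 6083 reads in the control libraries and 1230, 1181 and 1476 in the knockdown libraries. The groups did not overlap, and the log2 fold change was -1.87 (SE 0.05, adjusted p = 8.64e-21). SLC7A11 amounted to 0.126, 0.139 and 0.147 of the SLC3A2 level in the shNC libraries and to 0.135, 0.129 and 0.135 in the shNUF2 libraries, so that the ranges of this ratio overlapped. For SLC7A5 the ratio to SLC3A2 was 2.78, 2.78 and 2.96 with shNC and 3.09, 3.21 and 3.12 with shNUF2, higher in every knockdown library. With 3 libraries per group an exact permutation test of such a ratio cannot give a two-sided p below 0.1, so these ratios were not tested.

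SLC7A8 (LAT2), a light chain of SLC3A2 with a broad range of neutral substrates, changed in the opposite direction to SLC7A5. It lies on chromosome 14 from 23125295 to 23183674, and had 40, 43 and 32 reads in the control libraries and 274, 275 and 302 in the knockdown libraries. Every knockdown library had more than 6 times the reads of any control library. The level rose from 0.41 ± 0.0866 to 3.43 ± 0.0943 normalized FPKM (SD, n = 3 each), and the log2 fold change was 3.07 (SE 0.16, adjusted p = 1.9e-15) in the count test and 1.63 by limma on the log2(FPKM + 1) scale. SLC7A8 nevertheless remained a minor light chain: its share of the summed light chain level was 0.0529 ± 0.0118% with shNC and 1.39 ± 0.0613% with shNUF2. SLC7A5 was 1850 ± 460 times as abundant as SLC7A8 in control cells and 66.8 ± 3.14 times in knockdown cells.

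The exchangers of the y+L system, which release cationic amino acids in exchange for neutral ones, fell less than the fold limit. SLC7A6 had 503, 614 and 810 reads in the control libraries and 410, 384 and 431 in the knockdown libraries (log2 fold change -0.45, SE 0.09, adjusted p = 8.29e-05). SLC7A7 had 161, 187 and 221 reads in the control libraries and 116, 84 and 104 in the knockdown libraries (log2 fold change -0.71, SE 0.14, adjusted p = 0.000103). For both genes every knockdown library was below every control library. The other 3 light chains, SLC7A9, SLC7A10 and SLC7A13, had 0 reads in every library. Over the 8 light chains, the summed level was 777 ± 19.7 normalized FPKM with shNC and 247 ± 10.4 with shNUF2 (SD, n = 3 each), a ratio of 0.318 beside 0.282 for the summed heavy chains.

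**Figure D2:**
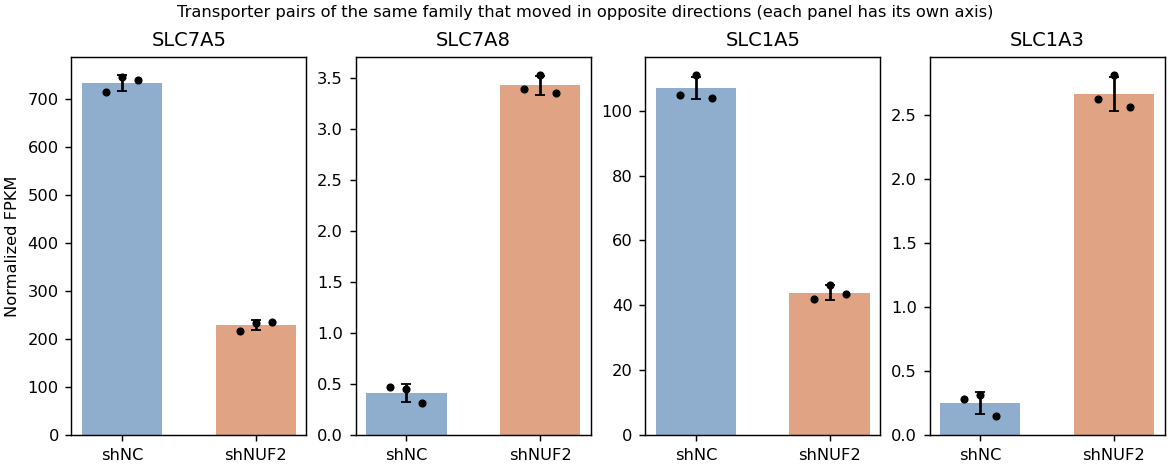
Normalized FPKM of SLC7A5, SLC7A8, SLC1A5 and SLC1A3 in each library (points) with the mean and SD of each group (n = 3 libraries), each gene on its own linear axis. SLC7A5 and SLC1A5 are lower in all 3 shNUF2 libraries, and SLC7A8 and SLC1A3 are higher in all 3.

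SLC43A1 and SLC43A2 carry large neutral amino acids by facilitated diffusion, without a heavy chain. SLC43A1 (LAT3, chromosome 11, 57484534 to 57515780) had 252, 319 and 318 reads in the control libraries and 112, 79 and 122 in the knockdown libraries, and its log2 fold change was -1.32 (SE 0.13, adjusted p = 1.35e-09). SLC43A2 (LAT4) had 136, 120 and 169 reads in the control libraries and 127, 168 and 186 in the knockdown libraries. Its log2 fold change was 0.37 with an adjusted p of 0.0305, but its groups overlapped and the call was lost under both limma fits on log2 FPKM. It was also lost without the second shNC library (0.25, adjusted p = 0.17), the second shNUF2 library (0.29, adjusted p = 0.144) or the third shNUF2 library (0.31, adjusted p = 0.11). SLC43A1 was thus lower in all knockdown libraries, while the libraries of SLC43A2 overlapped.

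The cationic amino acid transporters import arginine, lysine and ornithine without a heavy chain. SLC7A1 (CAT1), the general arginine transporter, had 3118, 3764 and 3771 reads in the control libraries and 1943, 1927 and 2106 in the knockdown libraries, and fell by 0.64 on the log2 scale (SE 0.05, adjusted p = 2.63e-12). SLC7A2 fell by 0.13 on the log2 scale (adjusted p = 0.0113), and its call was lost without the second shNUF2 library (-0.10, adjusted p = 0.0662). In control cells the levels of SLC7A1 and SLC7A2 were 29.2 ± 1.22 and 25.7 ± 0.636 normalized FPKM, and in knockdown cells they were 18.8 ± 0.536 and 23.4 ± 0.994 (SD, n = 3 each), so that their order was exchanged with no overlap in either group. SLC7A3 and SLC7A14 had 0 reads in every library and SLC7A4 at most 4.

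The SLC1 family holds both neutral amino acid exchangers and the sodium-dependent glutamate transporters, and of its 5 tested genes 2 exchangers fell and 2 glutamate transporters rose, beside 33.8% and 33.9% of all genes tested. SLC1A5 (chromosome 19, 46774883 to 46788594) had 4990, 5893 and 5987 reads in the control libraries and 1883, 2006 and 2180 in the knockdown libraries. Its level was 107 ± 3.36 normalized FPKM with shNC and 43.9 ± 2.23 with shNUF2 (SD, n = 3 each), with a log2 fold change of -1.28 (SE 0.05, adjusted p = 1.35e-18). SLC1A4 (ASCT1), the exchanger of alanine, serine, cysteine and threonine on chromosome 2 from 64988477 to 65023865, had 529, 676 and 597 reads in the control libraries and 154, 147 and 160 in the knockdown libraries. The log2 fold change of SLC1A4 was -1.78 (SE 0.10, adjusted p = 1.93e-14), and neither exchanger had overlapping groups.

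Among the glutamate transporters, SLC1A3 (EAAT1, known from astrocytes) rose most. It lies on chromosome 5 from 36606355 to 36688334, and had 25, 31 and 16 reads in the control libraries and 221, 229 and 241 in the knockdown libraries. All knockdown libraries were far above all control libraries, and the log2 fold change was 3.44 (SE 0.19, adjusted p = 1.41e-14). On the log2(FPKM + 1) scale, where low values are compressed, limma gave 1.54. With a filter of 1 CPM in every library SLC1A3 had too few reads to be tested. SLC1A1 (EAAT3), the glutamate transporter with the highest level in control cells, had 293, 364 and 284 reads in the control libraries and 364, 320 and 388 in the knockdown libraries. After scaling, its levels of 5.19, 5.73 and 4.15 normalized FPKM with shNC lay below the 6.8, 6.2 and 6.49 with shNUF2, and it rose by 0.37 on the log2 scale (SE 0.11, adjusted p = 0.00295), or by 0.24 without the third shNC library (adjusted p = 0.0435). SLC1A1 was 21.7 ± 5.48 times as abundant as SLC1A3 with shNC and 2.45 ± 0.212 times with shNUF2. SLC1A7 had 9 to 21 reads and a log2 fold change of 0.66 (adjusted p = 0.157), or 0.42 to 0.96 without single libraries. SLC1A2 and SLC1A6 had at most 4 reads in any library. The summed level of the 5 glutamate transporters was 5.43 ± 0.932 normalized FPKM with shNC and 9.41 ± 0.26 with shNUF2, and that of the whole SLC1 family was 118 ± 4.71 and 54.9 ± 2.0 (SD, n = 3 each).

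In the SLC38 family of sodium-coupled neutral amino acid transporters, 4 of 8 tested genes fell, 1 rose and 3 did not pass the adjusted p, beside 33.8% lower and 33.9% higher of all genes tested. SLC38A2 (SNAT2), the system A transporter known to be induced by amino acid shortage, had 12605, 14727 and 15578 reads in the control libraries and 8614, 7881 and 9892 in the knockdown libraries (log2 fold change -0.51, SE 0.04, adjusted p = 2.49e-11). SLC38A1 (SNAT1) had 13368, 15963 and 16364 reads in the control libraries and 7516, 7268 and 8840 in the knockdown libraries (log2 fold change -0.76, SE 0.04, adjusted p = 7.25e-15). Both genes were lower in every knockdown library, and their summed level was 235 ± 5.68 normalized FPKM with shNC and 154 ± 5.38 with shNUF2 (SD, n = 3 each). SLC38A10 fell by 0.62 on the log2 scale (adjusted p = 7.85e-11). SLC38A5 (SNAT5), which carries glutamine, histidine and glycine in exchange for protons, rose by 0.31 on the log2 scale (SE 0.04, adjusted p = 3.53e-07), from 53.0 ± 0.593 to 65.8 ± 1.67 normalized FPKM with no overlap.

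SLC38A3 (SNAT3), a glutamine transporter known from liver and kidney, had the largest standard error of the lower genes past the fold limit. It lies on chromosome 3 from 50205246 to 50221486, and had 112, 123 and 152 reads in the control libraries and 35, 80 and 53 in the knockdown libraries. All knockdown libraries were below all control libraries but spread among themselves, and the log2 fold change was -1.0 (SE 0.22, adjusted p = 0.000227). It missed the fold limit under 7 of 15 alternative settings, among them the fits without the third shNC library (-0.94), the first shNUF2 library (-0.77) and the third shNUF2 library (-0.90). SLC38A9, the lysosomal arginine sensor and transporter that acts on mTORC1, had 233, 303 and 307 reads in the control libraries and 227, 192 and 226 in the knockdown libraries. Its groups overlapped after scaling, with a log2 fold change of -0.19 (SE 0.11, adjusted p = 0.119). SLC38A6 and SLC38A7 had log2 fold changes of -0.38 and -0.09 (adjusted p = 0.0658 and 0.407). The libraries of SLC38A6 did not overlap, and it passed the adjusted p with library totals only (0.0432), with no filter on low counts (0.0386) and without the first (0.0471) or the second shNC library (0.0367). Without the third shNC library it was -0.21 (adjusted p = 0.378), and over all alternatives it lay between -0.48 and -0.21. SLC38A11 had 0 reads in every library, and SLC38A4 and SLC38A8 had at most 4.

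SLC36A1 (PAT1), which carries small neutral amino acids together with protons and is found at lysosomes, had 160, 158 and 197 reads in the control libraries and 88, 98 and 111 in the knockdown libraries, and fell by 0.60 on the log2 scale (SE 0.14, adjusted p = 0.00059) with no overlap between the groups. SLC36A4, the more abundant member, had a log2 fold change of 0.03 (adjusted p = 0.633) and a level of 7.30 ± 0.386 normalized FPKM with shNC and 7.48 ± 0.346 with shNUF2 (SD, n = 3 each). SLC36A2 had at most 1 read and SLC36A3 none. The summed level of the 4 SLC36 genes was 8.86 ± 0.372 and 8.52 ± 0.295 normalized FPKM, a difference smaller than the SD of the control libraries.

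SLC6A9 (GlyT1), the sodium- and chloride-dependent glycine transporter, fell most of all transporters. It lies on chromosome 1 from 43991500 to 44031467, and had 1089, 1359 and 1400 reads in the control libraries and 116, 101 and 137 in the knockdown libraries. The level fell from 15.4 ± 0.806 to 1.62 ± 0.129 normalized FPKM (SD, n = 3 each), a 9.54-fold lower mean, with a log2 fold change of -3.25 (SE 0.08, adjusted p = 1.34e-21). SLC6A15, a transporter of branched-chain amino acids and proline, had 665, 827 and 789 reads in the control libraries and 468, 454 and 471 in the knockdown libraries (log2 fold change -0.52, adjusted p = 9.27e-07). SLC6A6 (TauT), the taurine transporter, had 11457, 11332 and 12249 reads in the control libraries and 11940, 10143 and 12876 in the knockdown libraries. Its log2 fold change was 0.18 (SE 0.05, adjusted p = 0.00253), although 1 control library lay within the range of the knockdown libraries, and the call was lost with limma on log2 FPKM plus 0.1 (0.14, adjusted p = 0.0503). SLC6A14 had a log2 fold change of -0.27 (adjusted p = 0.158) and overlapping groups. Without single libraries it ranged from -0.41 without the third shNC library (adjusted p = 0.0412) to -0.17 without the third shNUF2 library (adjusted p = 0.428). Because SLC6A6 made up most of the level of these 4 genes, their sum was 113 ± 6.04 normalized FPKM with shNC and 109 ± 6.75 with shNUF2.

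**Figure D3:**
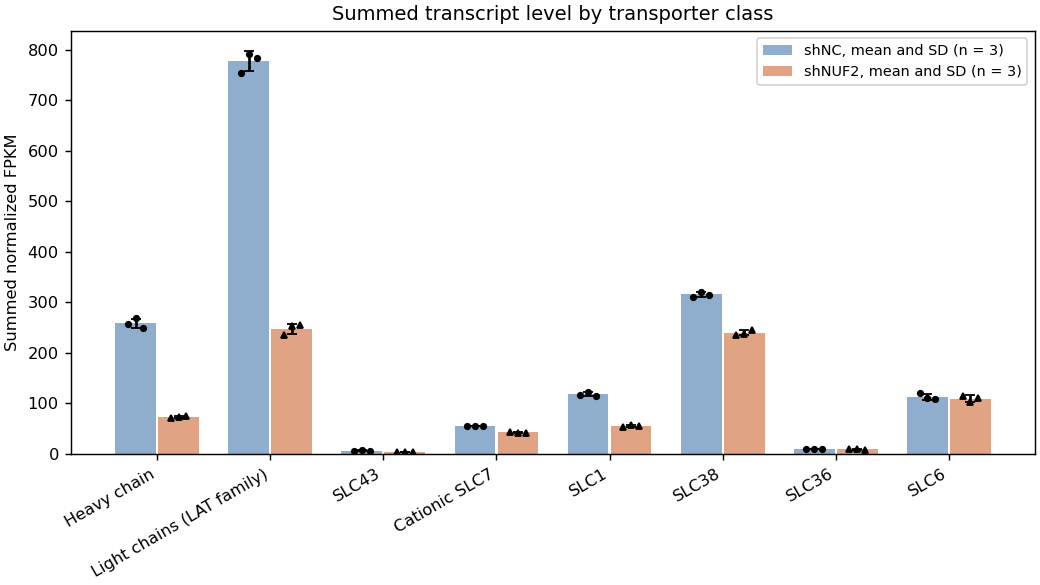
Summed normalized FPKM by transport class (bars, mean and SD of 3 libraries per group, linear axis from 0) with the single libraries as points. The light chains, led by SLC7A5, show the largest difference (777 with shNC and 247 with shNUF2), and the SLC36 and SLC6 classes differ by less than the SD of their control libraries.

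The order of the transporters by level changed below the first place. In control cells SLC7A5 was followed by SLC3A2, SLC38A2, SLC1A5, SLC38A1 and SLC6A6, and only the neighbours SLC38A1 (93.9 to 99.7 normalized FPKM) and SLC6A6 (85.9 to 97.6) had overlapping libraries among these 6. In knockdown cells SLC7A5 was followed by SLC6A6, SLC38A2, SLC3A2, SLC38A5 and SLC38A1, where SLC6A6 (94.6 to 107 normalized FPKM) and SLC38A2 (93.2 to 101) overlapped. SLC3A2 thus moved from rank 2 to rank 4, and SLC6A6 from rank 6 to rank 2. Within a group, the median coefficient of variation over the tested transporters was 6.63% with shNC and 5.07% with shNUF2.

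**Figure D4:**
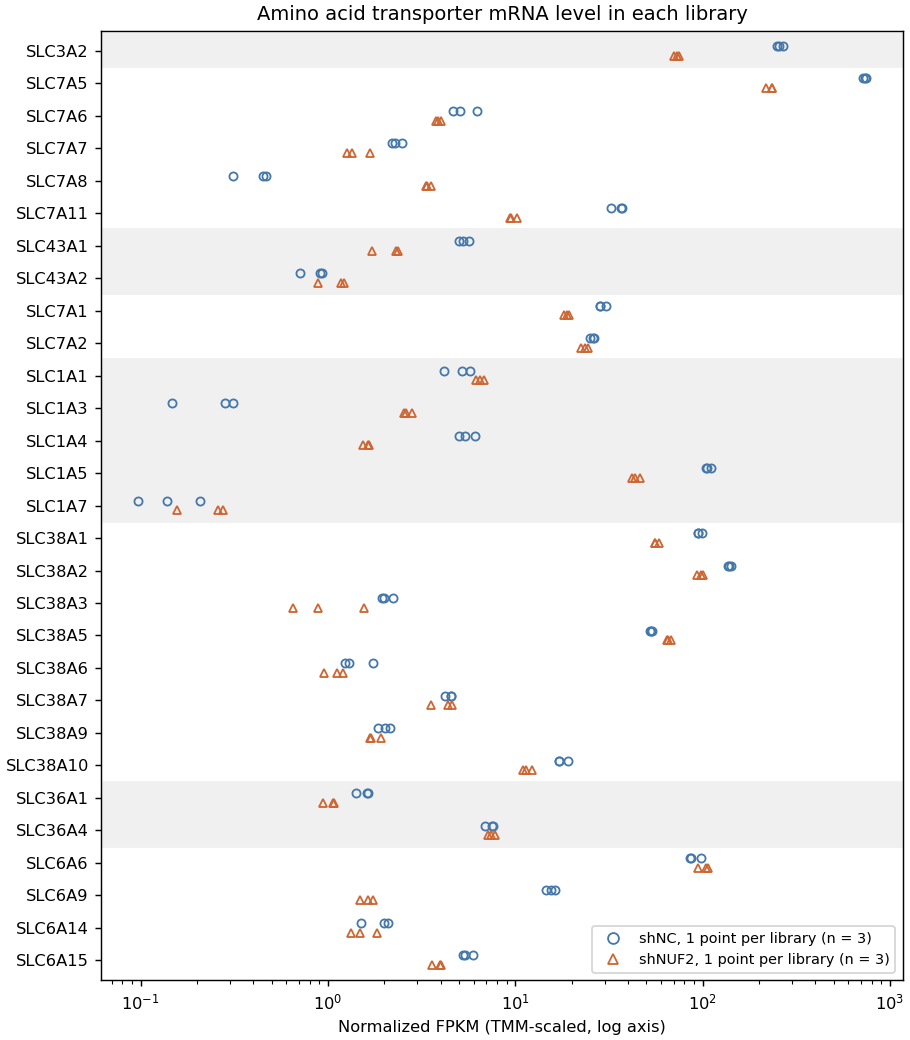
Normalized FPKM of each of the 29 tested transporters in each of the 6 libraries on a log axis, with shaded bands marking the transport classes. SLC7A5 has the highest level in both groups (733 with shNC and 229 with shNUF2), and the points of SLC1A3, SLC7A8 and SLC6A9 show the widest separation between groups.

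The remaining 14 transporters were too low for the test. In 7 of them (SLC36A3, SLC38A11, SLC7A3, SLC7A9, SLC7A10, SLC7A13 and SLC7A14) no read was counted in any library, and the other 7 had at most 4 reads in any library, whereas each tested transporter reached at least 21 reads in its highest library. With no filter on low counts, 1 of them passed: SLC38A4, with 0 reads in every control library and 4, 0 and 4 in the knockdown libraries, had an adjusted p of 0.0364. SLC7A4 had 0, 1 and 0 reads in the control libraries and 3, 4 and 2 in the knockdown libraries, which did not overlap, and an adjusted p of 0.0914 in that fit. No size is given for differences that rest on so few reads.

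Promoter sequences were compared because several transporters that fell are known targets of ATF4, which binds C/EBP-ATF response elements as a dimer. ATF4 itself had 5022, 5734 and 6134 reads in the control libraries and 2924, 2810 and 3362 in the knockdown libraries, and fell by 0.70 on the log2 scale (SE 0.04, adjusted p = 4.19e-14). The core TGATGNAA, which includes the form TGATGCAA, was searched on both strands of RefSeq promoters (GRCh38.p14, 250 bases before to 50 bases after each annotated start). Of the 43 transporters, 33 had a promoter entry and 6 of these (18.2%) held the core, beside 1217 of 27305 genes with an entry (4.46%). Counted by promoter, 6 of the 55 entries of the transporters held it (10.9%), beside 3.62% of all promoters. The 6 genes were 3 of the 6 transporters called lower that had an entry, 1 of 2 called higher (SLC1A3) and SLC38A1 and SLC7A1, which fell without passing the fold limit. The windows around the matches are shown on the strand of each gene, with the match in capitals. The match in SLC1A4 (chr2:64989372-64989419, plus strand) lies 7 bases before a start and in SLC1A5 (chr19:46784884-46784931, minus strand) 97 bases before. That in SLC3A2 (chr11:62881726-62881748, plus strand) lies 37 bases after a start. In SLC1A3 (chr5:36596348-36596395, plus strand) it lies 220 bases before a start, in SLC38A1 (chr12:46266493-46266540, minus strand) 4 bases before and in SLC7A1 (chr13:29595664-29595691, minus strand) 7 bases after.
SLC1A4: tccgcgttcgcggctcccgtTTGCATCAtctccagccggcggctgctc
SLC1A5: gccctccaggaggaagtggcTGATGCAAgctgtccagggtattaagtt
SLC3A2: gcaggactccTTACATCAgctcc
SLC1A3: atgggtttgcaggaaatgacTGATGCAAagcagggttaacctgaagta
SLC38A1: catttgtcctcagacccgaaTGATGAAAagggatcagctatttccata
SLC7A1: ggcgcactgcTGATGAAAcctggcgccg
In SLC1A4 and SLC3A2 the core reads on the opposite strand and appears as its reverse complement. The full form TGATGCAA occurred in SLC1A3, SLC1A4 and SLC1A5, that is 3 of 33 transporters with an entry (9.09%) beside 1.08% of all genes. SLC1A3, whose window holds the same 8 letters as that of SLC1A5, rose while SLC1A5 fell. The SLC1A3 start of this window lies upstream of the gene span in the count table. For SLC1A4, SLC1A5, SLC3A2 and SLC38A1 the start lies inside that span, after the first base of the gene. Apart from SLC7A1, with 1 entry, each match lies in 1 of 2 or 3 promoter entries of its gene. A match describes the letters in these windows and was not tested for binding of any factor. Whether the lower ATF4 RNA had a part in the changes of the transporters was not tested either, and ATF4 protein was not measured here.

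Other transporters, mostly of amino acids and peptides and among them further members of the SLC6 family, were read beside the 43 genes. The list also holds SLC43A3, a member of the SLC43 family known to carry purine nucleobases. It is counted below among the genes that rose (log2 fold change 0.24). Of 31 listed genes, 21 were tested, 4 were called higher and 1 lower, and 10 rose and 6 fell at the adjusted p, with a median log2 fold change of 0.209. The shares called were 19.0% higher and 4.76% lower, beside 9.41% and 4.16% of all genes tested, and at the adjusted p they were 47.6% and 28.6%, beside 33.9% and 33.8%. SLC17A7 and SLC6A19, which are 2 of the 4 called higher, passed the filter on low counts only through the knockdown libraries, so that these shares are no support for a rise of the list. Those called higher had few reads in control cells: SLC17A7 (vesicular glutamate transporter) had 4, 4 and 1 reads in the control libraries and 38, 42 and 47 in the knockdown libraries, and SLC6A19 (a neutral amino acid transporter of kidney and gut) had 4, 1 and 1 reads and 12, 12 and 28. The peptide transporter SLC15A2 had 41, 53 and 51 reads in the control libraries and 100, 89 and 114 in the knockdown libraries, and the proline transporter SLC6A7 had 22, 31 and 16 reads and 40, 34 and 53. SFXN2, of the sideroflexin family of mitochondrial serine transporters, was called lower at the fold limit, with 98, 133 and 123 reads in the control libraries and 42, 44 and 69 in the knockdown libraries. This call was lost with the DESeq2 Wald test, DESeq2 size factors, TREAT, a filter of 1 CPM in every library and both limma fits, and without the second shNC, the first shNUF2 or the second shNUF2 library.

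Of 12 listed partners and regulators of transport, 9 were tested, of which 3 rose (33.3%, beside 33.9% of all genes tested) and 6 fell (66.7%, beside 33.8%) at the adjusted p, with 1 called in each direction (11.1%, beside 9.41% higher and 4.16% lower). CD44, a surface protein of which a variant stabilises SLC7A11, had 2671, 2782 and 3210 reads in the control libraries and 7897, 7486 and 8374 in the knockdown libraries and was called higher (log2 fold change 1.65). CHAC1, an enzyme that degrades glutathione and a target of ATF4, had 342, 431 and 415 reads in the control libraries and 33, 48 and 43 in the knockdown libraries and was called lower (log2 fold change -3.06). Thus CHAC1 fell in all knockdown libraries, as SLC7A11 did, whereas CD44 rose.

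Several of these counts could include reads of other transcripts. In GENCODE release 29, 16 of the 29 tested transporters overlap a gene on the opposite strand, such as SLC7A11-AS1 at SLC7A11 and CCDC24 at SLC6A9, and 9 overlap a gene on the same strand. The strand setting of the read counting is not given in the sources used here. Reads shared between SLC7A5 and its pseudogenes SLC7A5P1 and SLC7A5P2, or between SLC6A6 and SLC6A6P1, were not analysed here.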

How the data were processed

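RNA-seq of OVCAR3 cells with shNC or shNUF2 (3 libraries each, groups from the sample labels) was analysed from a table of 19973 genes. The authors deposited raw read counts per gene, and the tools of their processing notes are cutadapt, HISAT and HTSeq with the genome build GRCh38.p13; versions and the annotation release are not given in the sources used here. The authors also deposited FPKM values, which equal count divided by gene length and library total to a relative deviation of at most 2.71e-07. Library totals of 13057534 to 16995452 reads limit precision for genes with few reads.

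Genes were kept with filterByExpr, scaled by TMM and compared with the quasi-likelihood test of edgeR 4.0.16 in R 4.3.3, with 6 libraries in one fit and no covariate. P-values were adjusted after Benjamini and Hochberg across all 12874 tested genes, and the SE was derived from the F statistic as the size of the log2 fold change over the root of F. "Rose" and "fell" refer to an adjusted p under 0.05. The fold limit of 1 follows the methods of the study, read on the log2 scale. Ratios and sums use normalized FPKM and Python 3.11.15. The test was also run on simulated counts, drawn from the distribution that it assumes and with changes placed only in genes with more reads. This run is no check for genes with few reads.

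The transporters and the lists beside them were chosen with earlier results of these data known. Every transporter is accounted for. Those past the fold limit and 8 well known ones are given with their reads by rule, and further ones with reads were chosen after their values were seen. Other genes are named only past the fold limit, apart from NUF2, cell type markers, ATF4 and SLC43A3. ATF4 and SLC43A3 were chosen after their values were seen. Alternatives were other scalings, filters, DESeq2 1.42.0, limma 3.58.1 on log2 FPKM (pseudocounts 1 and 0.1), TREAT, the replicate number as a block, and each library left out. Those on the lists outside the transporters were added after seeing the data.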

Additional observations from a re-analysis of the deposited data

How the results depend on the processing

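Under the alternatives, 413 of 431 log2 fold changes of single transporters kept their direction and their side of the adjusted p threshold, 7 were no longer past it, 5 newly passed it and 6 changed sign. The changes of sign were all in genes that did not pass: SLC36A4 with library totals only (-0.0045), with limma on log2 FPKM plus 0.1 (-0.0019) and plus 1 (-0.0018) and without single libraries (-0.01 to 0.06), and SLC38A7 without single libraries (-0.16 to 0.01). SLC43A2 was lost in 5 of the 7 cases, SLC6A6 and SLC7A2 in 1 each, and of the 5 that newly passed 4 were SLC38A6 and 1 SLC6A14. With limma plus 1, which compresses low values, SLC1A3 (1.54), SLC7A8 (1.63), SLC38A3 (-0.63) and SLC36A1 (-0.36) were nearer to 0. The transporters called lower numbered 7 or 8 under each alternative, and those called higher 2, except 1 with a filter of 1 CPM in every library, which leaves 27 transporters tested, and 3 with no filter. Over all genes the numbers called higher and lower were 756 and 397 with that filter, 680 and 211 with TREAT, 745 and 459 with limma plus 0.1 and 431 and 207 with limma plus 1, against 1212 and 536; the cause was not tested. The other scalings gave medians over all genes between -0.0491 and -0.00438. With deposited FPKM the ratio of shNUF2 to shNC was 0.459 over all transporters, 0.739 for SLC38, 0.639 for SLC38A1 and SLC38A2 and 0.75 for the cationic transporters.

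Of the other transporters, the number called higher was 2 with TREAT, 1 with the 1 CPM filter, 1 with limma plus 0.1 and 0 with limma plus 1 (4 by edgeR's test, all at an unadjusted p under 0.05). The 1 called lower, SFXN2, became 0 with the DESeq2 Wald test, DESeq2 size factors, TREAT, the 1 CPM filter and both limma fits, and the number was 0 to 1 without single libraries (0 without shNC library 2, shNUF2 library 1 or shNUF2 library 2). Of the partners, 3 were called higher and 5 rose at the adjusted p with no filter, and 1 to 2 were called higher without single libraries (2 without shNC library 1, 2 or 3 or shNUF2 library 2). The form TGATGCAA alone was found in 3 transporters.

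Deviations of libraries with the same number correlated at 0.04, 0.022 and -0.051, so the numbers were not taken to pair the libraries. With the replicate block, 8 transporters were called lower and 2 higher, and 17 fell and 6 rose at the adjusted p, with SLC3A2 at -1.83 (edgeR adjusted p = 7.07e-25). Not every library correlated best with its own number. Depth limits genes with few reads, such as SLC1A7 with 9 to 21 per library.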
